A study of Mus musculus with 18 samples.

Results

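The comparison described here sets RAW cells given R848 together with apilimod for 7 h against RAW cells given R848 without an active inhibitor for 7 h. It rests on 3 of the 18 arrays of the series: 1 R848+apilimod array at 7 h, and as controls the R848 array and the R848+API09 array of the same hour, whose mean is the control level. The remaining 15 arrays served to estimate the spread or to set the effect beside other hours. RAW is a mouse macrophage cell line. R848 (0.1 mM, as the labels give it) was present in all 3 arrays of the comparison, with apilimod at 1 uM in the R848+apilimod cells, API09 at 1 uM in the R848+API09 cells and no compound in the R848 cells. API09 is described by the study as an inactive analog of apilimod. The medium array at 7 h, from cells with neither R848 nor compound, is quoted where it helps to place a level. Every condition at 7 h is 1 array of 1 cell line, and nothing in the labels says that arrays came from separate cultures. P-values therefore reflect array-to-array spread alone, possibly technical, and the lone R848+apilimod array is assumed to vary like the R848 and R848+API09 pairs.

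R848 is a small-molecule agonist of Toll-like receptor 7, an endosomal sensor of RNA whose adaptor signalling switches on NF-kB, MAP kinases and interferon regulatory factors in macrophages. Apilimod inhibits PIKfyve, the lipid kinase that makes the phosphoinositides needed for late endosomes and lysosomes to keep their shape and traffic. Macrophage genes for lysosomes and their proton pump are controlled by the MiT/TFE transcription factors, which are held in the cytoplasm while the Rag GTPases and mTORC1 are active on lysosomes. Genes for sterol and fatty acid synthesis are controlled by SREBP factors, which are released when sterol in the endoplasmic reticulum is low.

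The 3 arrays were close in overall brightness, and the median intensity over the 18 arrays of the series was between 17.5 and 19.2. The mean log2 intensity of the 18S ribosomal RNA control probe sets was 8.61 on the R848+apilimod array, 8.54 on the R848 array and 10.14 on the R848+API09 array. The 3' minus 5' log2 difference of the beta-actin control was 0.276, 0.168 and 0.120 on these arrays, in that order, and 0.233 on the medium array of 7 h. For the Gapdh control it was -0.163, -0.149 and -0.173 on the same 3 arrays. The part of these control values in any result was not tested. Of 10 macrophage markers, 9 were above the filter level of 18.1 on each of the 4 arrays at 7 h, and Mertk was dim on all 4. Markers of T cells, B cells, neutrophils, conventional dendritic cells and fibroblasts read at most 42.4 on any of these arrays. By array, 2 to 3 of 5 T cell markers and 1 to 2 of 4 B cell markers were above the filter level. So were 0 of 4 neutrophil, 1 of 4 dendritic cell and 1 of 5 fibroblast markers. In bulk RNA such as this, fewer cells of a type and less RNA per cell cannot be told apart.

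Of 12257 genes tested, 2406 (19.6%) differed between R848+apilimod and the R848 controls at 7 h in limma's moderated test at a Benjamini-Hochberg adjusted p of 0.05, with 1203 higher (9.81%) and 1203 lower (9.81%). At an unadjusted p of 0.05 the number was 3552. The counts of list members given below are to be read beside the 9.81% of all genes called in each direction. Differences are given as log2 of the intensity plus 16, R848+apilimod minus controls, with their standard error after ±, and they understate the change of dim genes. The called genes included 293 that were higher and 259 that were lower by at least 1 log2 unit, 58 and 61 by at least 2, and 11 and 21 by at least 3. The median difference over all genes tested was -0.02. The R848+API09 and R848 arrays differed from each other by a median absolute 0.0775, and 1 gene differed between them by 1 log2 unit or more, against a median absolute 0.137 for R848+apilimod against both.

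**Figure D1:**
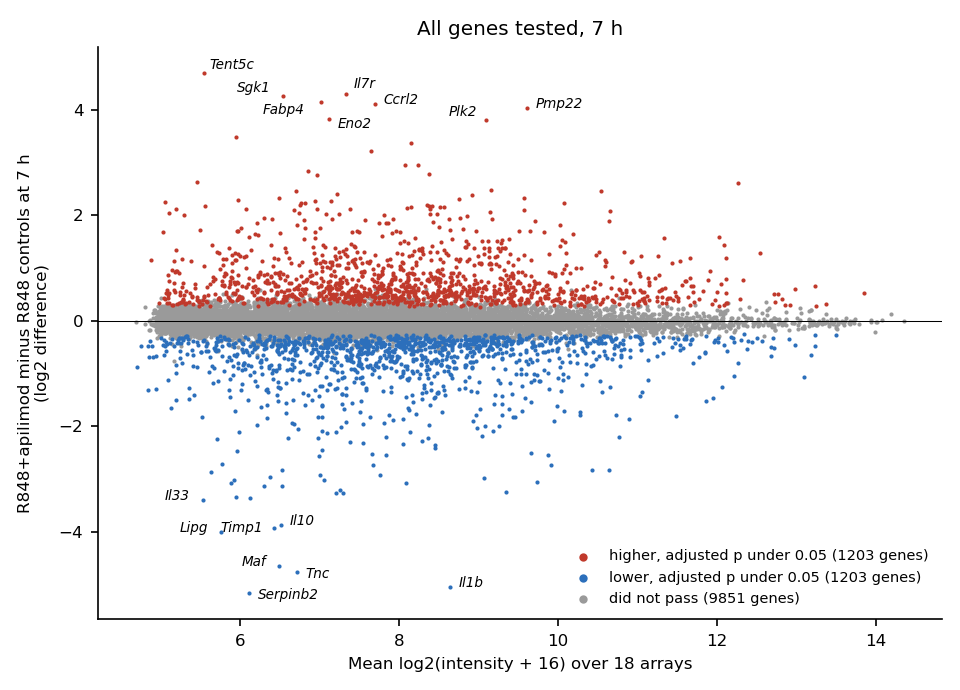
Each point is 1 of the 12257 genes tested, with its mean log2(intensity + 16) over the 18 arrays on the horizontal axis and the log2 difference of R848+apilimod minus the R848 controls at 7 h on the vertical axis. Red points passed higher (1203 genes), blue points passed lower (1203 genes) and grey points did not pass; the 8 largest rises and the 8 largest falls are labelled, from Tent5c at 4.69 to Serpinb2 at -5.16.

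The largest rises were of genes with low to moderate intensity on both control arrays. Tent5c, which encodes a poly(A) polymerase, read 631.5 on the R848+apilimod array, against 7.93 on the R848 array and 10.2 on the R848+API09 array, and 8.60 on the medium array. The interleukin-7 receptor gene Il7r read 1808 with R848+apilimod, against 82.5 with R848 and 72.3 with R848+API09. Sgk1, a serum- and glucocorticoid-regulated kinase, read 941.2 with R848+apilimod, against 35.6 with R848 and 33.3 with R848+API09. For each of these genes the R848+apilimod array stood far above both controls, and the controls lay close to each other. The log2 differences were 4.69 ± 0.14, 4.29 ± 0.22 and 4.25 ± 0.13.

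Fabp4, a fatty acid binding protein of macrophages and fat cells, read 2158 with R848+apilimod, against 108 with R848 and 106 with R848+API09 (log2 difference 4.14 ± 0.16). The atypical chemokine receptor gene Ccrl2 read 2272 with R848+apilimod, against 117 with R848 and 117 with R848+API09 (log2 difference 4.11 ± 0.13). Pmp22, a membrane protein known from myelin, read 3776 with R848+apilimod, against 215 with R848 and 220.5 with R848+API09 (log2 difference 4.02 ± 0.12). On the control arrays Sgk1 was close to its medium level of 31.2, and Pmp22 was below its medium level of 276. Plk2, a polo-like kinase, read 4404 with R848+apilimod, against 302.9 with R848 and 298 with R848+API09 (log2 difference 3.80 ± 0.10). The enolase gene Eno2 read 962.2 with R848+apilimod, against 40.8 with R848 and 69.4 with R848+API09 (log2 difference 3.81 ± 0.19), and here the R848 and R848+API09 arrays lay further apart than for most genes. The other genes among the 15 largest rises were Fabp3 (3.47 ± 0.14), Lhfpl2 (3.37 ± 0.10), the transglutaminase gene Tgm2 (3.22 ± 0.17), the proton pump subunit gene Atp6v0d2 (2.96 ± 0.20), the secretory kinase gene Fam20c (2.95 ± 0.12), the coagulation factor gene F10 (2.84 ± 0.16) and the creatine transporter gene Slc6a8 (2.78 ± 0.10). All 15 had an adjusted p of 1.3e-06 or lower. Some probe sets of these genes disagreed, with kept probe sets from -0.01 to 3.37 for Lhfpl2, from 0.04 to 3.47 for Fabp3 and from 0.46 to 4.14 for Fabp4.

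The 15 genes with the largest falls all read higher on the R848 array than on the medium array. Serpinb2, an inhibitor of plasminogen activators, read 15.05 on the R848+apilimod array, against 1022 on the R848 array and 1178 on the R848+API09 array, and 7.20 on the medium array (log2 difference -5.16 ± 0.17). Il1b, the precursor of interleukin-1 beta, read 342.6 with R848+apilimod, against 12028 with R848 and 11680.0 with R848+API09, and 32.7 with medium (log2 difference -5.05 ± 0.17). Tnc, the matrix protein tenascin C, read 23.3 with R848+apilimod, against 1139 with R848 and 977.3 with R848+API09 (log2 difference -4.77 ± 0.14). Serpinb2 and Tnc thus lay near the filter level with R848+apilimod, while Il1b stayed above medium.

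Maf, a transcription factor that drives Il10 in macrophages, read 22.2 with R848+apilimod, against 847.8 with R848 and 1055 with R848+API09 (log2 difference -4.65 ± 0.14), although its kept probe sets ran between -4.65 and -0.07. The endothelial lipase gene Lipg read 14.8 with R848+apilimod, against 412.9 with R848 and 552.4 with R848+API09 (log2 difference -4.0005 ± 0.19). Timp1, an inhibitor of matrix metalloproteinases, read 21.2 with R848+apilimod, against 532.0 with R848 and 574.2 with R848+API09 (log2 difference -3.93 ± 0.18). For Timp1 the R848+apilimod array was level with medium at 21.6, and for Maf it lay below the 29.8 of medium. Il10, the anti-inflammatory cytokine, read 47.9 with R848+apilimod, against 931.1 with R848 and 900.1 with R848+API09 (log2 difference -3.86 ± 0.09). The alarmin gene Il33 read 6.61 with R848+apilimod, against 228 with R848 and 216 with R848+API09 (log2 difference -3.40 ± 0.10), so its R848+apilimod value was at the 6.22 of medium and below the filter level. The rest of the 15 largest falls were the formyl peptide receptor gene Fpr2 (-3.36 ± 0.12), the gap junction gene Gja1 (-3.35 ± 0.15), the cholesterol exporter gene Abca1 (-3.28 ± 0.15), the antimicrobial S100a8 (-3.28 ± 0.12), the Fc receptor gene Fcgr1 (-3.25 ± 0.13), the BMP target gene Id1 (-3.21 ± 0.10) and the siderophore-binding protein gene Lcn2 (-3.14 ± 0.13). All 15 had an adjusted p of 1.1e-07 or lower.

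**Figure D2:**
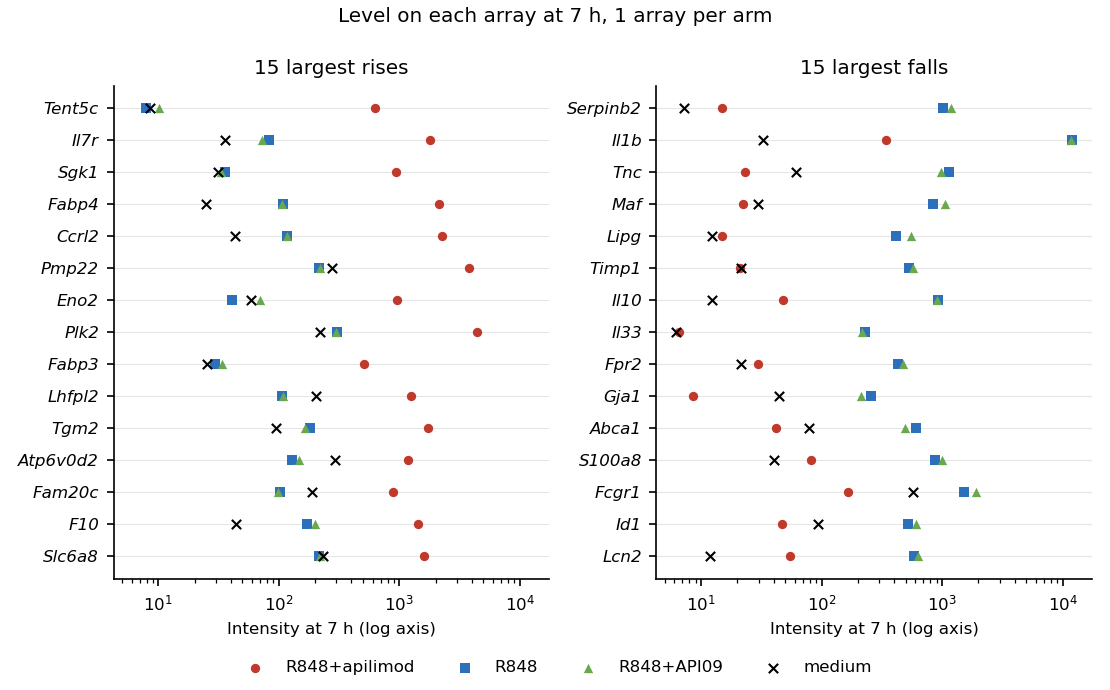
Intensity on each array at 7 h (log axis, 1 array per arm) for the 15 largest rises in the left panel and the 15 largest falls in the right panel. The R848 and R848+API09 points nearly coincide for most genes, while the R848+apilimod point lies apart from both, as for Tent5c (631.5 against 7.93 and 10.2) and Serpinb2 (15.05 against 1022 and 1178).

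Genes of the lysosome and of its proton pump were higher far more often than lower. Of 18 vacuolar ATPase subunit genes tested, 15 rose and 0 fell, with a list median of 0.66. Atp6v0d2, a membrane-sector subunit also used by osteoclasts, read 1173 with R848+apilimod, against 128 with R848 and 147 with R848+API09, with 291 in medium. Of the soluble sector, Atp6v1d read 1573 with R848+apilimod, against 525.9 with R848 and 540.9 with R848+API09 (log2 difference 1.53 ± 0.09). The catalytic subunit gene Atp6v1a read 4455 with R848+apilimod, against 1902 with R848 and 1917 with R848+API09 (log2 difference 1.22 ± 0.09). The smaller rise of Atp6v1c1 was 1.18 ± 0.09.

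Of 44 lysosomal hydrolase genes, 25 rose and 2 fell, with a median of 0.36. Gla, the alpha-galactosidase, read 1636 with R848+apilimod, against 278 with R848 and 281 with R848+API09 (log2 difference 2.48 ± 0.08). The cathepsin K gene Ctsk read 5202 with R848+apilimod, against 922.0 with R848 and 945.1 with R848+API09 (log2 difference 2.46 ± 0.13). Psap, the saposin precursor, rose by 1.56 ± 0.10. Against these, the cathepsin C gene Ctsc read 1696 with R848+apilimod, against 6144 with R848 and 5754 with R848+API09, a fall (log2 difference -1.80 ± 0.09). Of 35 lysosomal membrane protein genes, 16 rose and 3 fell, with a median of 0.25. Gpnmb, a glycoprotein of stressed lysosomes, read 14852 with R848+apilimod, against 2291 with R848 and 2559 with R848+API09 (log2 difference 2.61 ± 0.10). The chloride-proton exchanger gene Clcn7 read 499.3 with R848+apilimod, against 101 with R848 and 107 with R848+API09 (log2 difference 2.11 ± 0.12), with kept probe sets between 0.37 and 2.11. Mfsd12 (1.71 ± 0.09) and the nucleoside transporter gene Slc29a3 (1.30 ± 0.19) rose as well.

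Promoters were searched because these gene groups have textbook motifs, the E-box TCACGTG bound by MiT/TFE factors and the sterol element TCACNCCAC bound by SREBP factors. RefSeq promoters of GRCm38.p6, reaching 250 bases before and 50 bases after the start of a transcript, were matched by symbol to 9933 of the genes tested and read on both strands. TCACGTG was in a promoter of 6.695% of the genes tested (665 of 9933), of 14.095% of the genes that rose (137 of 972) and of 4.401% of those that fell (43 of 977). The proton pump and lysosomal genes tested had it in 25% (20 of 80). Over all promoters of the table the share was 3.765%, counted per promoter. The stretches around the motif, which is in capitals, are shown for the 3 rising lysosomal genes with the largest difference whose promoter holds it and for the only cholesterol synthesis gene tested whose promoter holds the sterol element. The promoter of Gla held 4 matches at 2 separate places, that of Clcn7 3 matches at 2 places and that of Atp6v1a 2 matches at 1 place, since TCACGTGA matches on both strands; 1 match of each is capitalised.
Gla promoter, chrX:134601207-134601253, minus strand: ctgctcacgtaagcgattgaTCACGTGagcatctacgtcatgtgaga
Clcn7 promoter, chr17:25133355-25133401, plus strand: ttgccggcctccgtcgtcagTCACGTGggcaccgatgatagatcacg
Atp6v1a promoter, chr16:44139365-44139411, minus strand: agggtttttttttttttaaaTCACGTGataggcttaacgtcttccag
Hmgcs1 promoter, chr13:119690194-119690242, plus strand: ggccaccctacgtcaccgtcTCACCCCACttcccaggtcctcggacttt
The motif begins 228 bases before the transcript start in Gla, 16 before it in Clcn7 and 132 before it in Atp6v1a. TCACNCCAC was in a promoter of 1.43% of the genes tested, 2.058% of those that rose and 1.228% of those that fell, and in 1 of 18 cholesterol synthesis genes with a promoter in the table. A match describes letters in this window and not a bound site.

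Upstream of the lysosome, the genes of the MiT/TFE factors and of the folliculin and Rag machinery that restrains them moved unevenly. Of 24 tested, 7 rose and 2 fell, with a median of 0.15. Rragc, a Rag GTPase, read 3229 with R848+apilimod, against 1388 with R848 and 1326 with R848+API09 (log2 difference 1.24 ± 0.09). The folliculin partners Fnip2 (1.20 ± 0.10) and Fnip1 (1.16 ± 0.12) rose. The factor gene Mitf read 184 with R848+apilimod, against 518.5 with R848 and 495.5 with R848+API09, and 921.4 with medium (log2 difference -1.39 ± 0.09). Tfeb itself did not pass, with 81.9 on the R848+apilimod array, against 90.9 and 84.9 on the R848 and R848+API09 arrays and a log2 difference of -0.08 ± 0.08 (95% interval -0.27 to 0.10).

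The target of apilimod was itself somewhat higher. Pikfyve read 162 with R848+apilimod, against 94.1 with R848 and 109.7 with R848+API09 (log2 difference 0.60 ± 0.15, adjusted p = 0.0164). Of 24 genes of the PIKfyve complex and of phosphoinositide enzymes, 4 rose and 1 fell (median 0.04), a share near that of all genes. The others named were the kinase genes Pip5k1b (0.64 ± 0.13), Pip5k1c (0.62 ± 0.11) and Pip4k2c (0.48 ± 0.09). Of 35 autophagy genes, 11 rose and 1 fell, with a median of 0.09. The cargo receptor gene Sqstm1 read 11158 with R848+apilimod, against 4063 with R848 and 4206 with R848+API09 (log2 difference 1.43 ± 0.10). Atg13 of the initiation complex (1.11 ± 0.14), the conjugation factor Atg12 (0.83 ± 0.11) and the membrane marker Map1lc3b (0.62 ± 0.09) rose.

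Sterol synthesis showed the highest median of all 38 lists. Of 22 cholesterol synthesis genes tested, 19 rose and 0 fell, with a median of 1.25. Mvd, the mevalonate decarboxylase, read 925.7 with R848+apilimod, against 198 with R848 and 201 with R848+API09 (log2 difference 2.13 ± 0.12). Nsdhl, which removes methyl groups from sterols, read 2053 with R848+apilimod, against 606.8 with R848 and 642.1 with R848+API09 (log2 difference 1.69 ± 0.10). The terminal reductase gene Dhcr7 (1.68 ± 0.09), the lanosterol synthase gene Lss (1.54 ± 0.10), the isomerase gene Idi1 (1.49 ± 0.12) and the synthase gene Hmgcs1 (log2 difference 1.26) rose as well. Of 17 fatty acid synthesis genes, 12 rose and 0 fell, with a median of 0.70. The acetyl-CoA synthetase gene Acss2 read 196 with R848+apilimod, against 46.1 with R848 and 55.01 with R848+API09 (log2 difference 1.68 ± 0.10). Fasn (1.38 ± 0.12), the desaturase gene Scd1 (1.33 ± 0.12) and the elongase gene Elovl6 (1.22 ± 0.20) followed. Rnf145, a sterol-responsive ubiquitin ligase, rose by 1.93 ± 0.10.

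The main sterol exporters, which the oxysterol-sensing LXR receptors control, fell. Of 8 LXR target genes tested, 3 fell and 1 rose (median -0.14). Abca1 read 41.98 with R848+apilimod, against 606.4 with R848 and 490.7 with R848+API09, with 77.96 in medium. Its relative Abcg1 read 30.5 with R848+apilimod, against 232 with R848 and 229 with R848+API09 (log2 difference -2.41 ± 0.09), although another kept probe set gave -0.08. Mylip, a ubiquitin ligase for the LDL receptor, fell by 1.56 ± 0.13 log2 units, while the phosphodiesterase-like gene Smpdl3a rose (0.38 ± 0.12, adjusted p = 0.0399). Of 17 genes of lipid droplets and fatty acid binding, 7 rose and 3 fell (median 0.14). Beside Fabp4 and Fabp3 these included the lipase inhibitor Hilpda (2.02 ± 0.11) and the scavenger receptor Olr1 (1.85 ± 0.15).

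Cytokine genes split by member. Of 16 genes of the interleukin-1 family and inflammasome, 7 fell and 1 rose, with a median of -0.24. Il1a read 223 with R848+apilimod, against 1988 with R848 and 1843 with R848+API09, and 7.23 with medium (log2 difference -3.01 ± 0.18). Il18 read 147 with R848+apilimod, against 565.1 with R848 and 689.2 with R848+API09 (log2 difference -1.97 ± 0.13). Of 18 other cytokine genes, 6 rose and 6 fell (median -0.07). Tnf read 8027 with R848+apilimod, against 3692 with R848 and 3529 with R848+API09, and 309.4 with medium (log2 difference 1.15 ± 0.11). Csf3, the granulocyte colony-stimulating factor, read 10322 with R848+apilimod, against 3771 with R848 and 3628 with R848+API09 (log2 difference 1.48 ± 0.12). Il6, by contrast, read 43.9 with R848+apilimod, against 247 with R848 and 291 with R848+API09, and 6.49 with medium (log2 difference -2.25 ± 0.10). So with apilimod Tnf and Csf3 were further above medium than with R848 alone, and Il6 and Il10 less far. The growth factor gene Hbegf rose by 2.29 ± 0.11.

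The subunits of the interleukin-12 family were dim or lower. Il12b, the subunit shared by interleukin-12 and interleukin-23, read 11.02 with R848+apilimod, against 22.9 with R848 and 32.4 with R848+API09 (log2 difference -0.68 ± 0.12). Ebi3, a subunit of interleukin-27, read 567.0 with R848+apilimod, against 1494 with R848 and 1624 with R848+API09 (log2 difference -1.43 ± 0.10). Il23a read 11.2 with R848+apilimod, against 13.2 with R848 and 12.1 with R848+API09, below the filter level on all 3 arrays, and did not pass (log2 difference -0.07 ± 0.10, 95% interval -0.30 to 0.15). Of 16 chemokine genes, 7 fell and 2 rose, with a median of -0.29. Ccl5, a T cell attractant, read 708.6 with R848+apilimod, against 5454 with R848 and 6037 with R848+API09 (log2 difference -2.99 ± 0.10). Cxcl2, a neutrophil attractant, read 15000.0 with R848+apilimod, against 6799 with R848 and 6092 with R848+API09 (log2 difference 1.22 ± 0.15), so these chemokines moved in opposite directions. Ccl6 (-1.57 ± 0.13) and Cxcl10 (-1.47 ± 0.11) fell.

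Signalling genes downstream of the receptor fell more often than they rose. Of 20 genes of NF-kB subunits and their inhibitors, 9 fell and 5 rose (median -0.28). Bcl3, an atypical inhibitor and co-activator, read 124 with R848+apilimod, against 916.6 with R848 and 913.5 with R848+API09 (log2 difference -2.73 ± 0.10). Tnfaip3, the deubiquitinase A20, read 1076 with R848+apilimod, against 384.9 with R848 and 365.9 with R848+API09 (log2 difference 1.48 ± 0.14). Nfkbiz (-1.14 ± 0.09) and the kinase gene Map3k8 (-1.13 ± 0.15) fell, so feedback genes of this pathway did not move in 1 direction. Of 24 MAP kinase phosphatases, SOCS and other feedback inhibitors, 15 fell and 3 rose, with a median of -0.52. The phosphatase gene Dusp2 read 97.2 with R848+apilimod, against 953.5 with R848 and 933.3 with R848+API09 (log2 difference -3.08 ± 0.11). Zfp36, which marks cytokine messages for decay, read 550.7 with R848+apilimod, against 3758 with R848 and 3750.3 with R848+API09 (log2 difference -2.73 ± 0.10). The G protein regulator Rgs16 (-2.92 ± 0.13) and Dusp6 (-2.56 ± 0.14) fell to values below the medium array, where Rgs16 read 179.8 and Dusp6 read 108. The 3 that rose, named after their values were seen, were Dusp4 (2.16 ± 0.13), Rgs1 (1.81 ± 0.12) and Dusp14 (1.13 ± 0.12).

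Of 25 immediate-early transcription factor genes, 11 fell and 5 rose (median -0.22). Fos read 315.2 with R848+apilimod, against 1607 with R848 and 1440.0 with R848+API09 (log2 difference -2.21 ± 0.15). Cebpd, a factor of the acute-phase response, read 934.0 with R848+apilimod, against 4032 with R848 and 3539 with R848+API09 (log2 difference -1.998 ± 0.11). Egr3 fell (-2.06 ± 0.12) and Klf4 fell (-1.61 ± 0.15). Atf3, a stress-induced member of the ATF family, rose. It read 2938 with R848+apilimod, against 552.1 with R848 and 591.0 with R848+API09 (log2 difference 2.33 ± 0.14). The others that rose, named after their values were seen, were Maff (1.91 ± 0.12), Jun (0.89 ± 0.12), Ier3 (0.75 ± 0.09) and Cebpb (0.62 ± 0.11).

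Interferon-stimulated genes moved mostly down, with 24 of 38 tested lower and 1 higher, and a median of -0.50. Ifit3, which binds foreign RNA, read 371.6 with R848+apilimod, against 1277 with R848 and 1661 with R848+API09, and 116 with medium (log2 difference -1.93 ± 0.17). Its relative Ifit1 read 469.5 with R848+apilimod, against 1599 with R848 and 1612 with R848+API09, and 143 with medium (log2 difference -1.74 ± 0.16). Isg20 (-1.51 ± 0.18) and the GTPase gene Igtp (-1.40 ± 0.09) fell. All 4 stayed close to or above the medium array. The gene that rose was Rsad2, an antiviral enzyme, with a log2 difference of 1.05, and it is named here, after its value was seen, as the exception. Of 14 genes for interferon beta, its receptors and IRF factors, 6 fell and 2 rose (median -0.26). Ifnb1, interferon beta, read 14.7 with R848+apilimod, against 20.7 with R848 and 30.6 with R848+API09 (log2 difference -0.43 ± 0.13, adjusted p = 0.0375), near the filter level on all 3 arrays. Irf5 (-0.89 ± 0.10), Jak2 (-0.86 ± 0.13) and Irf2 (-0.73 ± 0.09) fell, and Jak1 rose (0.49 ± 0.12), with a lowest probe set of -0.10.

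**Figure D3:**
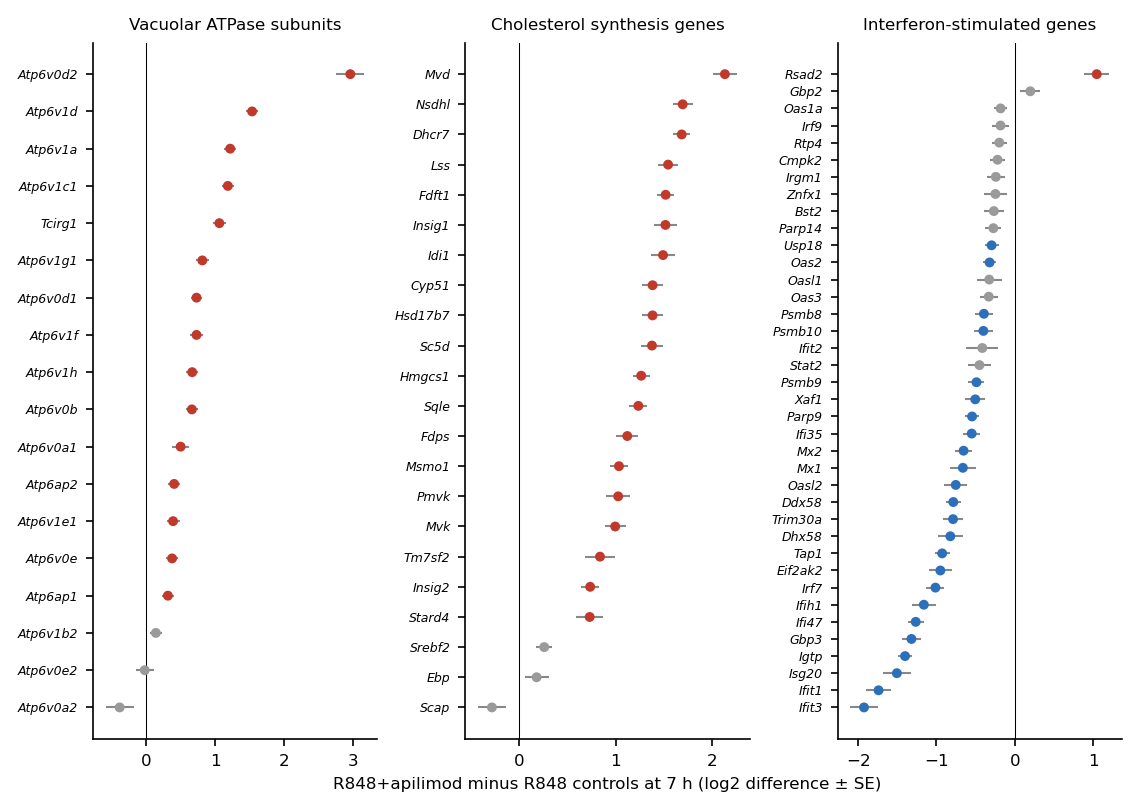
Log2 difference of R848+apilimod minus the R848 controls at 7 h, with bars of 1 standard error, for every tested gene of the vacuolar ATPase, cholesterol synthesis and interferon-stimulated lists, red for genes that passed higher, blue for those that passed lower and grey for the rest. The proton pump and cholesterol panels lie mostly to the right of 0 (Atp6v0d2 at 2.96, Mvd at 2.13), and the interferon-stimulated panel lies mostly to the left (Ifit3 at -1.93), with Rsad2 at 1.05 as the exception.

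The receptor for R848 did not pass. Tlr7 read 504.6 with R848+apilimod, against 409.8 with R848 and 386.1 with R848+API09, and 510.5 with medium, for a log2 difference of 0.33 ± 0.12 (95% interval 0.06 to 0.60, adjusted p = 0.0870). It passed, still higher with apilimod, in the fit without the R848+API09 array of 22 h (adjusted p = 0.00478), with quantile normalization (0.0114), with median centring (0.0118), with the mean over probe sets (0.0210) and with 64 added before the log (0.0432). Of 19 Toll-like receptor and adaptor genes, 4 rose (21.1%) and 5 fell (26.3%), beside 9.81% of all genes in each direction (median 0.06). Tlr13, a sensor of bacterial ribosomal RNA, read 190.3 with R848+apilimod, against 80.1 with R848 and 76.3 with R848+API09 (log2 difference 1.13 ± 0.10). Tlr2 (0.87 ± 0.16) and the kinase gene Irak2 (0.79 ± 0.10) rose, and the adaptor gene Tirap fell (-0.86 ± 0.14).

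**Figure D4:**
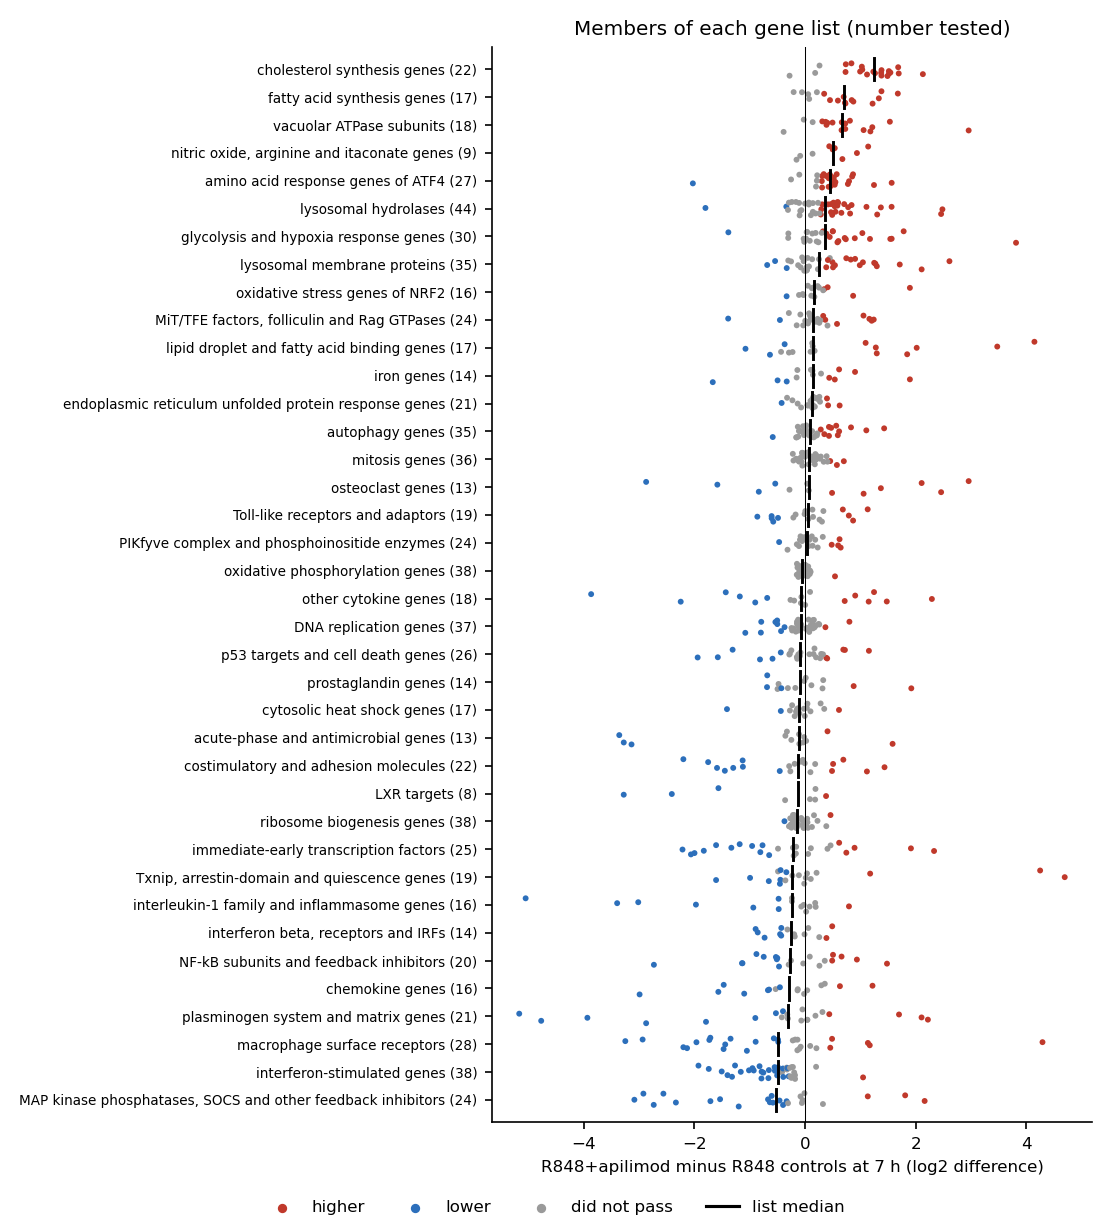
Log2 difference of R848+apilimod minus the R848 controls at 7 h for every tested member of the 38 gene lists, with 1 row per list, red for members that passed higher, blue for those that passed lower, grey for the rest and a black bar at the list median. Cholesterol synthesis has the median furthest to the right (1.25), and the feedback inhibitors have the median furthest to the left (-0.52), against -0.02 over all genes.

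Surface proteins of macrophages fell more often than they rose: of 28 macrophage receptor genes tested, 15 fell and 5 rose, with a median of -0.49. The largest difference on this list was nonetheless a rise, that of Il7r (4.29 ± 0.22). Fcgr1, the high-affinity Fc receptor, read 165 with R848+apilimod, against 1520.2 with R848 and 1909.7 with R848+API09, and 574.3 with medium. The chemokine receptor gene Ccr1 read 176 with R848+apilimod, against 1465 with R848 and 1432 with R848+API09 (log2 difference -2.93 ± 0.20). Itgam, the integrin subunit CD11b, read 122 with R848+apilimod, against 590.1 with R848 and 643.2 with R848+API09, and 102 with medium (log2 difference -2.20 ± 0.10). Fcgr1 was thus below the medium array, while Ccr1 and Itgam were above it. Of 22 costimulatory and adhesion genes, 8 fell and 5 rose (median -0.13). Cd40 read 724.9 with R848+apilimod, against 1936 with R848 and 2081 with R848+API09 (log2 difference -1.45 ± 0.12). Itgal (-1.75 ± 0.13), Cd80 (-1.59 ± 0.25) and Cd83 (-1.12 ± 0.14) fell. Slamf7 (1.44 ± 0.13) and Cd274 (1.12 ± 0.10), named after their values were seen, were among those that rose.

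Of 21 plasminogen system and matrix genes, 8 fell and 4 rose (median -0.31). Beside Serpinb2, Tnc and Timp1, the gelatinase gene Mmp9 read 12.99 with R848+apilimod, against 183 with R848 and 210.4 with R848+API09 (log2 difference -2.87 ± 0.21). Serpinb9 (2.22 ± 0.18), Plau (2.10 ± 0.15) and Adamts1 (1.70 ± 0.12), named after their values were seen, were among those that rose. Of 13 acute-phase and antimicrobial genes, 3 fell (23.1%) and 2 rose (15.4%), beside 9.81% of all genes in each direction (median -0.11). S100a8 read 81.7 with R848+apilimod, against 872.9 with R848 and 991.5 with R848+API09. Lcn2 read 55.2 with R848+apilimod, against 586.1 with R848 and 633.3 with R848+API09. Clec4e, a receptor for mycobacterial glycolipid, read 12859 with R848+apilimod, against 4379 with R848 and 4194 with R848+API09, a rise (log2 difference 1.58 ± 0.09). The S100a8 and Lcn2 levels on the R848+apilimod array still exceeded the 40.3 and 11.8 of medium.

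Of 13 osteoclast genes, 6 rose and 4 fell (median 0.07). Among the risen, Atp6v0d2, Ctsk, Clcn7, Acp5 and Tcirg1 are also on the proton pump or lysosomal lists above, so their rises are not a separate result. The fallen were Mmp9, Nfatc1 (-1.58 ± 0.21), Tnfrsf11a (-0.84 ± 0.11) and Ocstamp. The markers did not move together: the summed intensity of 6 osteoclast markers was 6973 on the R848+apilimod array, against 1841 on the R848 array, 1902 on the R848+API09 array and 2180 on the medium array, and Ctsk supplied most of it. Acp5 read 1474 with R848+apilimod, against 552.2 with R848 and 569.3 with R848+API09. The fusion genes Dcstamp (227 with R848+apilimod, against 274 with R848 and 284 with R848+API09) and Ocstamp (48.9 with R848+apilimod, against 72.0 with R848 and 84.9 with R848+API09) read lower. Ocstamp fell (log2 difference -0.54 ± 0.12), while Dcstamp did not pass (-0.28 ± 0.27, limma adjusted p = 0.588). Calcr and Oscar were dim on every array at 7 h.

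Most genes of the amino acid response, which the factor ATF4 controls, were higher, with 21 of 27 risen, 1 fallen and a median of 0.45. Ddit4, an inhibitor of mTORC1, read 417.6 with R848+apilimod, against 135 with R848 and 127 with R848+API09 (log2 difference 1.56 ± 0.17). Ddit3, the factor CHOP, read 585.1 with R848+apilimod, against 249 with R848 and 226 with R848+API09 (log2 difference 1.25 ± 0.13). The mitochondrial folate enzyme gene Aldh1l2 rose by 0.87 ± 0.12. The exception was Nupr1, which read 347.3 with R848+apilimod, against 1386 with R848 and 1547 with R848+API09 (log2 difference -2.03 ± 0.12). The unfolded protein response of the endoplasmic reticulum had 3 of 21 genes higher and 1 lower (median 0.13), shares close to those of all genes. Ern1 (0.62 ± 0.10), Dnajb9 (0.42 ± 0.09) and Pdia4 (0.40 ± 0.09) rose, and Herpud1 fell (-0.42 ± 0.12).

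Of 16 oxidative stress genes of NRF2, 4 rose and 1 fell (median 0.16). Hmox1, which degrades haem, read 4693 with R848+apilimod, against 1104 with R848 and 1417 with R848+API09 (log2 difference 1.89 ± 0.15). Srxn1 (0.87 ± 0.10), Txnrd1 (0.41 ± 0.09) and Me1 (0.35 ± 0.10) rose by less. Of 17 cytosolic heat shock genes, 1 rose (5.88%) and 2 fell (11.8%), with a median of -0.10. These shares are near the 9.81% of all genes in each direction. The inducible chaperone gene Hspa1b read 82.99 with R848+apilimod, against 218 with R848 and 280.0 with R848+API09 (log2 difference -1.41 ± 0.14). Bag3 fell (-0.44 ± 0.09), Hspa4l rose (0.61 ± 0.13), and Hsp90aa1 did not pass (0.35 ± 0.12). Of 14 iron genes, 5 rose and 3 fell (median 0.14), with the importer gene Slc11a2 at 0.90 ± 0.10, the iron sensor gene Aco1 at 0.62 ± 0.13 and the ferroxidase gene Cp at -1.67 ± 0.16, although its kept probe sets ran between -1.84 and 0.05.

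Of 30 glycolysis and hypoxia response genes, 16 rose and 1 fell, with a median of 0.36. Beside Eno2, the hexokinase gene Hk3 read 967.0 with R848+apilimod, against 277 with R848 and 263 with R848+API09 (log2 difference 1.78 ± 0.10). The hypoxia-responsive gene Ndrg1 read 1663 with R848+apilimod, against 542.3 with R848 and 581.1 with R848+API09 (log2 difference 1.54 ± 0.11). Ndrg1 and Ddit4 (1.56 ± 0.17), which also rose, encode no enzyme of glycolysis. The 1 member that fell was Pfkfb3 (-1.39 ± 0.09), whose product makes an activator of phosphofructokinase. The enzyme genes Pfkm, Tpi1, Pgam1, Pgk1, Ldha, Aldoa and Pkm did not pass. These last genes and Pfkfb3 were chosen after their values were seen. Of 38 oxidative phosphorylation genes, 1 rose and 0 fell, with a median of -0.05. The gene that rose was Ndufs8 (0.54 ± 0.11). Ndufa5 (-0.15 ± 0.11), Sdhc (-0.15 ± 0.09) and Ndufb5 (-0.14 ± 0.09) did not pass.

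Of 9 genes of nitric oxide, arginine and itaconate metabolism, 6 rose and 0 fell, with a median of 0.50. The arginine transporter gene Slc7a2 read 65.9 with R848+apilimod, against 21.9 with R848 and 20.4 with R848+API09 (log2 difference 1.14 ± 0.13). Acod1, which makes itaconate, read 12945 with R848+apilimod, against 8997 with R848 and 8837 with R848+API09, and 352.0 with medium (log2 difference 0.54 ± 0.12). Nos2, the inducible nitric oxide synthase, was higher by 0.67 ± 0.19 (adjusted p = 0.0298), and Arg2 by 0.94 ± 0.20. Of 14 genes of the prostaglandin list, 2 rose (14.3%) and 3 fell (21.4%), beside 9.81% of all genes in each direction (median -0.10). The list also holds the leukotriene genes Alox5, Alox5ap and Lta4h and the unrelated Pgs1, and Alox5ap (-0.43 ± 0.08) was among the falls. Ptgs2, the inducible cyclooxygenase, read 5460.4 with R848+apilimod, against 6538 with R848 and 7019.6 with R848+API09 and did not pass (log2 difference -0.31 ± 0.13, 95% interval -0.59 to -0.03). The prostaglandin D synthase gene Hpgds (1.92 ± 0.14) and the prostacyclin receptor gene Ptgir (0.88 ± 0.12) rose, and the receptor gene Ptger2 (-0.69 ± 0.09) and the phospholipase gene Pla2g4a (-0.68 ± 0.09) fell.

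Of 37 DNA replication genes, 8 fell (21.6%, beside 9.81% of all genes tested) and 2 rose (5.41%), with a median of -0.07. Ccne2, cyclin E2, read 123 with R848+apilimod, against 269 with R848 and 288 with R848+API09, and 630.3 with medium (log2 difference -1.08 ± 0.11). Cdc6 (-0.80 ± 0.09) and Ccne1 (-0.79 ± 0.12) fell, and Cdt1 rose (0.80 ± 0.08). Of 36 mitosis genes (median 0.07), 3 rose (8.33%, near the 9.81% of all genes) and 0 fell. Those that rose were Bub1 (0.70 ± 0.09), Cdc25b (0.58 ± 0.11) and Tpx2 (0.45 ± 0.09), while Kif23 did not pass (0.41 ± 0.14) but did in 5 of the alternatives. The kept probe sets of Tpx2 ran between -0.11 and 0.71. Of 38 ribosome biogenesis genes (median -0.14), Rrs1 rose (0.46 ± 0.11) and Gar1 fell (-0.37 ± 0.09), and neither Nop14 (0.38 ± 0.16) nor Nop58 (-0.29 ± 0.11) passed. In place of that 1 member, 9 fell with quantile normalization, 6 with 64 added before the log and 5 with trended and robust variances.

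Of 26 p53 target and cell death genes, 6 fell and 5 rose (median -0.09). The death receptor gene Fas read 222 with R848+apilimod, against 691.5 with R848 and 695.6 with R848+API09 (log2 difference -1.58 ± 0.11). Bcl2l11, the killer protein BIM, read 42.7 with R848+apilimod, against 213 with R848 and 206 with R848+API09 (log2 difference -1.94 ± 0.11). Gadd45a fell (-1.31 ± 0.10), and the caspase inhibitor gene Cflar rose (1.15 ± 0.10), with kept probe sets between 0.08 and 1.15. Of 19 genes of the Txnip, arrestin-domain and quiescence list, 7 fell and 3 rose (median -0.23). The 3 were Tent5c, Sgk1 and the atypical cyclin gene Ccng2 (1.18 ± 0.13).

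Apilimod and API09 were compared directly at the matched dose of 1 uM, the same R848 dose and the same hour, as the only pair of compounds at 7 h. With the R848 array of 7 h left out of the fit, 1923 genes (15.7%) differed, 1014 higher (8.27%) and 909 lower (7.42%), and the median standard error was 0.128 in place of 0.110. Tent5c differed by 4.63 ± 0.16, Il1b by -5.03 ± 0.20, Il10 by -3.84 ± 0.11 and Tnf by 1.18 ± 0.14. Among genes named above that passed against the R848 controls, several did not pass against API09 alone: Pikfyve differed by 0.50 ± 0.18 (95% interval 0.11 to 0.90), Nos2 by 0.49 ± 0.20 (0.03 to 0.94), Smpdl3a by 0.45 ± 0.13 (0.15 to 0.75) and Herpud1 by -0.34 ± 0.14 (-0.66 to -0.03). Their intervals do not show that the compounds act alike on these genes. Both comparisons use the same R848+apilimod and R848+API09 arrays of 7 h, so they are not independent of each other. Without the R848+API09 array of 22 h, which here enters only through the spread, 3327 genes passed.

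Some smaller differences lost their call when a particular array was left out, though not always by becoming smaller. Me1 stood at 0.36 without the R848+API09 array of 7 h and at 0.35 with all arrays. Leaving out the R848 array of 7 h gives the comparison with API09 described above, so it is not a further check. Without the R848+API09 array of 7 h, the adjusted p was 0.186 for Ifnb1 (log2 difference -0.26), 0.185 for Smpdl3a (0.31), 0.0972 for Me1 (0.36), 0.0863 for Gar1 (-0.33), 0.0818 for Rrs1 (0.40) and 0.0600 for Jak1 (0.35). Without the R848 array of 7 h it was 0.161 for Nos2, 0.156 for Herpud1, 0.135 for Me1, 0.0919 for Pikfyve and 0.0506 for Smpdl3a. Herpud1, Me1, Ifnb1 and Smpdl3a also lost their call in fits without an array of another hour, at adjusted p between 0.0516 and 0.0696. Without the R848+API09 array of 22 h, Kif23 (adjusted p = 0.00660), Nop14 (0.00888), Nop58 (0.0154), Ptgs2 (0.0276) and Hsp90aa1 (0.0310) passed, each in the direction given above. Hsp90aa1 passed in 7 of the alternatives in all. The fit without the R848+API09 array of 22 h also called more of all 12257 genes, 1706 higher and 1835 lower, against 1203 each way with all arrays. In that fit the fallen members numbered 5 of the lysosomal hydrolases, 5 of the lysosomal membrane proteins, 6 of the prostaglandin genes, 9 of the ribosome biogenesis genes, 5 of the acute-phase genes, 5 of the lipid droplet genes and 3 of the unfolded protein response, and the risen ones 7 of the mitosis genes, 7 of the unfolded protein response, 7 of the Toll-like receptors and adaptors, 4 of the chemokine genes and 3 of the cytosolic heat shock genes. With all arrays, 3 acute-phase genes, 3 lipid droplet genes and 1 unfolded protein response gene fell, and 1 heat shock gene rose. The lists counted here had from 13 (acute-phase) to 44 (lysosomal hydrolases) genes tested. The fit without the R848+API09 array of 22 h called more of all genes in both directions, so these counts are not results about the lists. Without the R848+API09 array of 7 h, 3 genes for interferon beta, its receptors and IRF factors fell and 3 macrophage receptors rose, and without the R848 array of 7 h, 3 members of the Txnip list fell.

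Set beside the earlier and the later hour, the apilimod effect at 7 h differed for many genes. The same comparison called 1126 genes at 3 h (9.19%; 5.07% higher and 4.12% lower) and 4232 at 22 h (34.5%; 20.2% higher and 14.3% lower). Across the genes tested the log2 differences at 7 h correlated with those at 3 h at r = 0.714 and with those at 22 h at r = 0.516; genes are not independent replicates, and these comparisons share no array. The effect itself differed between 7 h and 3 h for 584 genes (4.76%), 275 of them higher at 7 h (2.24%) and 309 lower (2.52%), but for 341 without the R848+API09 array of 3 h and for 1187 without that of 22 h. Between 7 h and 22 h it differed for 2458 genes (20.1%), 1075 of them higher at 7 h (8.77%) and 1383 lower (11.3%).

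Il10 had the largest difference from 3 h. At 3 h it read 420.1 with R848+apilimod, against 156 with R848 and 149 with R848+API09, so apilimod-treated cells had the higher level. At 7 h the order was turned round, and the effect at 7 h minus that at 3 h was -5.23 ± 0.12. Ccr1 read 123 with R848+apilimod at 3 h, against 56.97 with R848 and 51.2 with R848+API09, and its effect differed by -3.93 ± 0.29. Il33 read at most 6.56 on the 3 arrays at 3 h, below the filter level (effect difference -3.43 ± 0.14). Maf (-3.36 ± 0.20) and Lipg (-3.13 ± 0.27) also had a lower effect at 7 h than at 3 h. In the other direction were Eno2 (2.18 ± 0.27), Atp6v0d2 (2.14 ± 0.29), Pmp22 (2.12 ± 0.17), the Notch ligand gene Jag1 (1.98 ± 0.19) and Hspa1b (2.06 ± 0.20), whose fall was larger at 3 h.

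Genes with another effect at 22 h included those of sterol synthesis, the interferon response and the cell cycle. Cholesterol synthesis genes had 19 of 22 higher and 0 lower at 7 h, but 3 higher and 11 lower at 22 h, and the effect itself was higher at 7 h for 18 of them. Idi1 read 340.3 with R848+apilimod at 22 h, against 1073 with R848 and 962.2 with R848+API09, and its effect at 7 h minus that at 22 h was 3.02 ± 0.17. Rnf145 read 87.2 with R848+apilimod at 22 h, against 292 with R848 and 252 with R848+API09 (effect difference 3.40 ± 0.14). Both genes were thus above the controls at 7 h and below them at 22 h. Interferon-stimulated genes had 0 of 38 with a higher effect and 24 with a lower effect at 7 h than at 22 h. Mitosis genes had all 36 tested lower at 22 h, against 3 higher at 7 h, and DNA replication genes had 33 of 37 lower at 22 h. Cd83 read 1556 with R848+apilimod at 22 h, against 487.4 with R848 and 387.4 with R848+API09 (effect difference -2.93 ± 0.19). For Abca1 (-3.20 ± 0.21), Il1a (-3.19 ± 0.25), Smim3 (-2.89 ± 0.16) and the inhibitory receptor gene Pdcd1 (-2.88 ± 0.17) the effect at 22 h was -0.08, 0.18, 0.60 and -0.24, and the R848 level at 22 h was itself lower than at 7 h. Il33 (2.50 ± 0.14), Ralgds (2.56 ± 0.22) and Pmp22 (3.08 ± 0.17) had the more positive effect at 7 h.

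**Figure D5:**
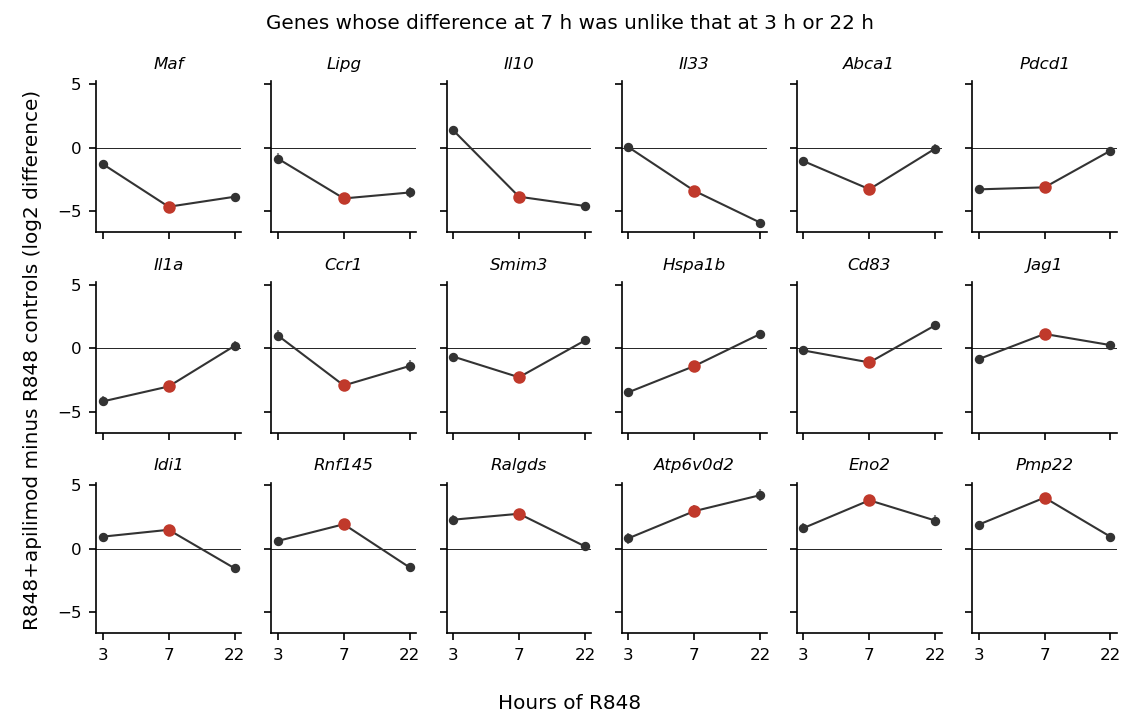
Apilimod effect (log2 difference of R848+apilimod minus the R848 controls of the same hour, with 95% intervals from the fit, most of them narrower than the points) at 3, 7 and 22 h, evenly spaced, for the genes whose effect at 7 h differed most from 3 h or 22 h. Il10 goes from above 0 at 3 h to below 0 at 7 h and 22 h (1.37, -3.86 and -4.59), while Idi1 and Rnf145 lie above 0 at 3 h and 7 h and below 0 at 22 h.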

How the data were processed

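Per the labels' protocols, RAW cell RNA was extracted with RNeasy columns, amplified with the NuGEN Ovation kit and measured on 1-colour mouse Affymetrix arrays. The deposited table gives a linear intensity for every probe set on every array. Like medians point to summarising and scaling by the authors before deposit, by a method not given in the sources used here. Among tools, limma is listed in the submitters' processing notes, without a version or a stated role. How much background the intensities hold is not known, and having 1 array for each condition at 7 h limits the precision.

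Of 45101 probe sets, 34958 had 1 gene symbol, 932 several and 9160, control probe sets aside, none. Symbols were updated through Entrez identifiers for 34754. The filter kept probe sets that exceeded 18.1, the overall median, on 3 or more arrays, and the brightest kept probe set on average stood for its gene, giving 12257 genes. In R 4.3.3, limma 3.58.1 was fitted to log2(intensity + 16) over all 18 arrays with moderated variances and two-sided tests. Within an hour, R848 and R848+API09 were fitted with a common mean, so that these pairs and the 2 medium arrays at 0 h gave 5 residual degrees of freedom. The comparison of apilimod with API09 had 4. Intervals are 95% intervals of these fits.

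On simulated data with changes of 0.5, 1 and 2 log2 units, run on 12257 genes for the comparison at 7 h, 29.9%, 86.6% and 98.5% of the changed genes were recovered, and 0.0664% of the unchanged genes were called. The noise was normal, with each gene's spread taken from the R848 and R848+API09 pairs. The simulated R848+apilimod array was given that same spread, so these figures cannot test that assumption. Only 67, 67 and 66 genes were changed, far fewer than the 2406 called in the data, and recovery depends on that share.

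The comparison, the 38 gene lists and the tests were chosen with earlier results of these data known. Named are the 15 largest rises and falls, up to 4 members of each list by size of difference, the 5 largest differences of each sign between hours, 15 fixed genes and the genes whose promoters are shown. Of 975 distinct list genes, 853 were tested, 61 were below the filter and 61 were not analysed here. The alternatives tried were other values added before the log, no filter, a stricter filter, quantile normalization, median centring, the mean over probe sets, robust variances with a trend, a size threshold and leaving out arrays.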

Additional observations from a re-analysis of the deposited data

Results flagged for a closer look

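The apilimod effect differed between 7 h and 3 h, by limma's test of the difference itself, for the following genes, given as the effect at 7 h minus that at 3 h on the log2 scale. The differences were -5.23 ± 0.12 for Il10 (adjusted p = 3.09e-09), -3.93 ± 0.29 for Ccr1, -3.435 ± 0.14 for Il33, -3.36 ± 0.20 for Maf and -3.13 ± 0.27 for Lipg. They were 1.98 ± 0.19 for Jag1, 2.06 ± 0.20 for Hspa1b, 2.125 ± 0.17 for Pmp22, 2.14 ± 0.29 for Atp6v0d2 (adjusted p = 0.00133) and 2.18 ± 0.27 for Eno2. Il10, Ccr1 and Jag1 had effects of opposite sign at these hours: Il10 -3.86 at 7 h and 1.37 at 3 h, Ccr1 -2.93 and 0.99, and Jag1 1.12 and -0.86.

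Between 7 h and 22 h the differences, as the effect at 7 h minus that at 22 h, were -3.20 ± 0.21 for Abca1, -3.19 ± 0.25 for Il1a, -2.93 ± 0.19 for Cd83, -2.89 ± 0.16 for Smim3 and -2.88 ± 0.17 for Pdcd1. They were 2.50 ± 0.14 for Il33, 2.56 ± 0.22 for Ralgds, 3.02 ± 0.17 for Idi1, 3.08 ± 0.17 for Pmp22 and 3.40 ± 0.14 for Rnf145 (adjusted p = 1.21e-06). Cd83 had an effect of -1.12 at 7 h and 1.80 at 22 h, Idi1 of 1.49 and -1.53, and Rnf145 of 1.93 and -1.48. For Il33 the effect was negative at both hours, -3.395 at 7 h and -5.90 at 22 h.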

How the results depend on the processing

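Of 172 genes named, 161 passed at 7 h, and 150 of these lost neither sign nor call in any of the 15 alternatives, other than a size threshold, in which they were tested. The stricter filter left 8 of the 172 untested. No sign turned where a gene was tested. Most of the named genes were chosen by the size of their difference in these same data, which favours steady calls. Every alternative reused the 1 R848+apilimod array of 7 h, so none tests how that array varies. Of the 11 that lost their call, Tpx2 and Txnrd1 lost it only with the mean over probe sets. With a minimum absolute difference of 1 log2 unit the counts of genes called were 552 for the controls at 7 h (2406 without it), 568 for API09 (1923), 209 for the difference from 3 h (584) and 586 for that from 22 h (2458). Leaving out 1 array at a time gave 1803 to 3541 genes at 7 h, 1530 to 3327 against API09, 341 to 1187 for the difference from 3 h and 1731 to 3348 for that from 22 h. All 4 highest values came without the R848+API09 array of 22 h. Leaving it out removes the R848 and R848+API09 pair of 22 h from the spread, as leaving out its R848 partner would. Except for the difference from 22 h, these counts therefore cannot tell the 2 arrays of that pair apart. The R848+API09 array of 22 h had the lowest upper-quartile intensity of the 18 arrays (87.0). It also had the highest 18S control level (mean log2 intensity 10.53) and the highest 3' minus 5' log2 difference of the beta-actin control (0.488). The part of these values in the counts was not tested. The lowest value for the difference from 3 h, 341, came without the R848+API09 array of that hour. Leaving out either medium array at 0 h gave the same count at 7 h (2053), since each removes the same 0 h pair. No paired analysis was possible because only the medium arrays at 0 h carry replicate numbers. Dim genes such as Il12b, Il23a and Ifnb1 are limited by signal over background.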
